A study of Homo sapiens with 9 samples.

Results

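ERK pathway feedback genes, whose transcription is an output of ERK signaling and whose products mostly feed back on it, were measured in SNU5 cells treated with ramucirumab on gold nanorods, on gold nanospheres or alone. The 10 genes were DUSP4, DUSP5, DUSP6, SPRY2, SPRY4, SPRED1, SPRED2, ETV4, ETV5 and PHLDA1, listed by symbol and matched to 10 of the 60880 Ensembl gene IDs in the count files. The cells are an established line from a human gastric carcinoma, and the antibody binds VEGFR2, a receptor for vascular endothelial growth factors. The NR group received AuNR-PEG-Ab (gold nanorods coated with polyethylene glycol and linked to the antibody), the SP group AuSP-PEG-Ab (the same with gold nanospheres) and the Ab group the free antibody. Each group had 3 poly-A RNA-seq libraries of cells treated for 24 h with 8 μg/mL of antibody, so every group carried ramucirumab. Untreated cells and particles without antibody were not analysed here, so the gold core, the coating and the linkage of the antibody cannot be told apart in a comparison with Ab. The study calls the libraries of a group biological replicates, and its statement that in vitro experiments were repeated independently is a general one. The labels do not say which cultures the libraries came from, so the p-values measure the spread between these libraries, which may be technical.

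ERK is the last kinase of a cascade that runs from growth factor receptors through RAS, RAF and MEK. Active ERK switches on immediate and delayed response genes, among them its own brakes, and the level of these transcripts is widely read as a sign of the pathway's output. Dual-specificity phosphatases remove phosphate from ERK, Sprouty and SPRED proteins act above it on the receptor, RAS and RAF steps, and the ETS factors ETV4 and ETV5 carry the signal to further target genes. The repressor CIC holds several of these genes down until ERK phosphorylates it. In gastric carcinoma the cascade is commonly driven by receptor tyrosine kinases.

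The NR libraries held 25735410, 13863155 and 15943980 counts. The SP libraries held 21682836, 22914759 and 20601906, and the Ab libraries 19566064, 26318227 and 21031024. Levels are given as CPM, counts per 1000000 counts of a library after TMM scaling, a method that sets most genes to a common level. Where a gene had 0 counts its true count may still be as high as 3, a floor of 0.114 to 0.216 CPM by library that covers counting error only. Libraries NR 2 and NR 3 stood apart for 4 genes, an observation made after the values were seen. PDGFRA had 58, 0 and 0 counts in the NR libraries against 45 to 72 in the other groups, KIT had 167, 1 and 0 counts against 139 to 195, ALK had 150, 0 and 6 counts against 141 to 193, and COL1A2 had 37, 0 and 0 counts against 33 to 278. The NR changes of the 10 genes against Ab, and the NR counts over the pathway lists, are therefore also given without these libraries.

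The epithelial markers of a carcinoma line were high, with a summed level of 3009 to 3771 CPM in every library, led by KRT8 in NR and SP and by KRT7 in Ab. Of 10 such markers, 7 to 9 had more than 3 counts in a library. Of 8 tested, 5 rose and 1 fell in NR, and likewise in SP. KRT19 had at most 1 count and TFF1 at most 4 counts in any library, and CDH1, the gene of E-cadherin, had only 5 to 9 counts in Ab against 79 to 159 in NR and SP. The paper gives SNU5 as the line sequenced, while the sample titles say gastric cancer cells. These markers were absent or unequal, and the identity of the line and a shared stock for the Ab, NR and SP cells were not tested. Marker lists of other cell types summed to far less than the epithelial list. The summed level of each was higher in NR and SP than in Ab, though not every marker was. Single markers were not all low: in NR library 1, LUM had 38.2 CPM and CDH5 21.5 CPM. The 10 feedback genes had 6.66 to 84.6 CPM in that library. The 10 leukocyte markers summed to 5.53 to 8.20 CPM in NR and SP and 1.45 to 2.24 CPM in Ab, with 2 to 4 of them above 3 counts in a library, LYZ and CD163 at 0 in all 9 libraries and CSF1R the most abundant in 5 of the 6 nanoparticle libraries. Of the leukocyte markers tested, 2 of 3 rose and CD14 fell in NR, and both of those tested rose in SP. The 6 endothelial markers found in the annotation, of 7 listed, summed to 20.8 to 24.1 CPM against 3.80 to 5.24 CPM, nearly all from CDH5, with EMCN and ROBO4 at 0 throughout, and both of those tested (CDH5 and VWF) rose in NR and SP. The 7 fibroblast markers summed to 106 to 121 CPM against 18.1 to 46.5 CPM, led by LUM or COL1A1, and 4 of the 7 (DCN, LUM, PDGFRB and FAP) rose in NR and SP while COL1A1, COL1A2 and COL3A1 did not pass the test. Mitochondrial genes took 4.36% to 4.66% of counts in NR and SP and 3.41% to 3.71% in Ab. These values moved with the same contrast as the results that follow, and their part in them was not tested.

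RefSeq promoters (GRCh38.p14, from 250 bases before to 50 bases after a start site) were at hand for 6 of the 10 genes, with 9 start sites. DUSP6, SPRY2, SPRY4, SPRED1, SPRED2 and PHLDA1 were matched, and DUSP4, DUSP5, ETV4 and ETV5 were not. Both strands were searched for the CIC octamers TGAATGAA, TGAATGGA, TCAATGAA and TCAATGGA, for the ETS motif CCGGAAGT and for the AP-1 motif TGANTCA. Of 35116 promoters in the table, 3.77% held a CIC octamer, 4.14% the ETS motif and 7.71% the AP-1 motif. Among the matched genes only DUSP6 held a CIC octamer, at 2 places read on the other strand, from -24 to -17 and from 2 to 9 of its start site. An AP-1 motif was found only in SPRED2, at the second of its start sites, from -6 to 1 and again from 35 to 41, past the stretch printed. These are matches of letters, not sites shown to be bound. Shown here from 100 bases before to 20 bases from the start are the promoters with matches and that of PHLDA1, the gene with the greatest fall among the 10, in which none of these letters were found. Capitals mark the motif matches. DUSP6 spans chr12:89352482-89352601, SPRED2 chr2:65366759-65366878 and PHLDA1 chr12:76031757-76031876, all on the minus strand.
DUSP6: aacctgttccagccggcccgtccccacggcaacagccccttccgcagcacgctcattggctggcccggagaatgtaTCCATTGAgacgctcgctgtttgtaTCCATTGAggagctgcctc
SPRED2: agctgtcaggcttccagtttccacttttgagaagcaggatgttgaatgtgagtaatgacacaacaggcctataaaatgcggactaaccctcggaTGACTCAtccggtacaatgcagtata
PHLDA1: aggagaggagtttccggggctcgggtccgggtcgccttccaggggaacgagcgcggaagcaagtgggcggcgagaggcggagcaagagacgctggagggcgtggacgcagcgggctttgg

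The first question was how the nanoparticle-linked antibody differed from the free antibody. All 10 genes passed the filter on low counts in every comparison. Of the 10, 9 fell in NR and 8 fell in SP relative to Ab, and none rose. The fall reached 2-fold in 6 genes in NR (DUSP4, DUSP5, SPRY2, SPRY4, ETV5 and PHLDA1) and in the same 6 genes in SP, while DUSP6 and SPRED2 fell by less, SPRED1 fell in NR, and ETV4 did not pass the test in either. A gene was taken to have changed at an adjusted p of at most 0.05 (quasi-likelihood test of edgeR, adjusted by Benjamini-Hochberg across every gene tested), and was called where the change was also at least 2-fold. Among all 15009 genes tested for NR against Ab, 36.4% fell and 36.4% rose, and 10.3% were called lower and 12.4% higher. For SP against Ab 36.6% fell and 36.4% rose among 15068 genes, and 10.6% were called lower and 12.6% higher. The median log2 fold change was -1.32 over the 10 genes and -0.01 over all genes in NR, and -1.36 and -0.01 in SP. Libraries of the groups did not overlap for 9 of the genes in NR against Ab and for 8 in SP against Ab, where this held for 74.7% and 75.1% of all genes. The NR and SP values here share the Ab libraries and are not independent of each other. In bulk RNA, fewer cells of a type and less RNA per cell cannot be told apart.

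**Figure D1:**
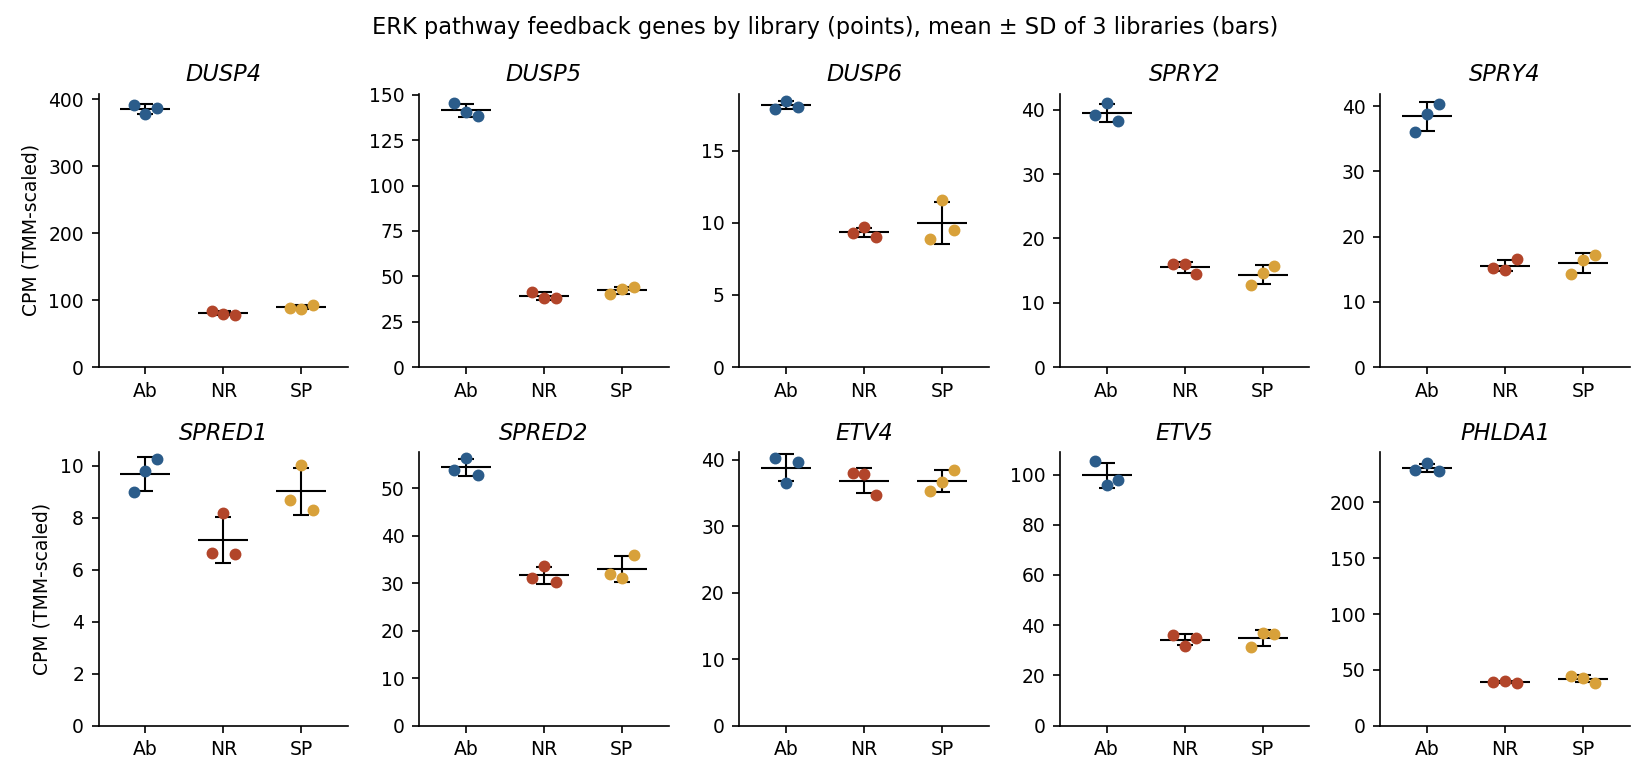
Level of each gene in CPM (vertical axis, TMM-scaled) in the Ab, NR and SP groups, with a point for each of 3 libraries and bars for the mean ± SD. The Ab points of DUSP4, PHLDA1 and DUSP5 lie far above both nanoparticle groups, and those of ETV4, at 36.5 to 40.3, overlap the nanoparticle libraries, at 34.8 to 38.5.

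Of the phosphatases, DUSP4 and DUSP5 fell more than DUSP6. DUSP4, a nuclear phosphatase of ERK and related kinases (ENSG00000120875, GRCh37 chromosome 8, 29190581 to 29208201, minus strand), had 392, 378 and 387 CPM in the Ab libraries. It had 84.6, 80.0 and 78.1 CPM in NR, and 89.1, 86.6 and 92.3 CPM in SP. Every nanoparticle library was far below every Ab library. DUSP4 was 4.75-fold lower in NR (adjusted p = 5.46e-25 with edgeR, log2 fold change -2.25, SE 0.047) and 4.29-fold lower in SP (adjusted p = 6.22e-24 with edgeR, log2 fold change -2.10, SE 0.047). The counts behind these values were 7529 to 9844 in Ab, 1115 to 2186 in NR and 1909 to 2009 in SP.

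DUSP5, which dephosphorylates ERK in the nucleus and anchors it there (ENSG00000138166, chromosome 10, 112257665 to 112271291, plus strand), had 145, 141 and 138 CPM in Ab. Its levels were 41.6, 38.1 and 37.9 CPM in NR and 40.3, 42.9 and 43.95 CPM in SP. Again the 6 nanoparticle libraries lay together and below the 3 Ab libraries. The gene was 3.58-fold lower in NR (adjusted p = 1.44e-21 with edgeR, log2 fold change -1.84, SE 0.056) and 3.32-fold lower in SP (adjusted p = 3.00e-20 with edgeR, log2 fold change -1.73, SE 0.057).

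DUSP6 encodes the cytoplasmic phosphatase that is most selective for ERK, and its promoter held the CIC octamers printed above. It lies on chromosome 12 (ENSG00000139318, 89741012 to 89746278, minus strand) and had 17.9, 18.5 and 18.0 CPM in Ab, 9.29, 9.69 and 9.05 CPM in NR and 8.88, 11.6 and 9.48 CPM in SP. Both nanoparticle groups lay below Ab without overlap, and SP varied more than the others. DUSP6 fell 1.94-fold in NR (adjusted p = 8.20e-10 with edgeR, log2 fold change -0.96, SE 0.097) and 1.80-fold in SP (adjusted p = 2.97e-08 with edgeR, log2 fold change -0.85, SE 0.103), under the 2-fold minimum in both. An antisense gene covers 28.6% of its exon bases, and use of strand in the counting was not stated, so reads of the pair cannot be told apart.

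Among the inhibitors that act upstream, the Sprouty genes fell by more than the SPRED genes. SPRY2, which holds back RAS-ERK signaling from several receptors (ENSG00000136158, chromosome 13, 80910111 to 80915261, minus strand), had 39.1, 41.1 and 38.2 CPM in Ab. It had 16.0, 16.0 and 14.5 CPM in NR and 12.8, 14.6 and 15.7 CPM in SP. All nanoparticle libraries were below all Ab libraries, by 2.54-fold in NR (adjusted p = 3.18e-15 with edgeR, log2 fold change -1.34, SE 0.077) and 2.74-fold in SP (adjusted p = 3.77e-15 with edgeR, log2 fold change -1.46, SE 0.082). SPRY4, its relative (ENSG00000187678, chromosome 5, 141689992 to 141706020, minus strand), had 36.1, 38.8 and 40.4 CPM in Ab. NR libraries had 15.2, 14.9 and 16.5 CPM and SP libraries 14.2, 16.3 and 17.2 CPM. This was a fall of 2.47-fold in NR (adjusted p = 1.01e-14 with edgeR, log2 fold change -1.30, SE 0.078) and 2.40-fold in SP (adjusted p = 7.62e-14 with edgeR, log2 fold change -1.26, SE 0.081), again with no overlap.

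SPRED proteins bind neurofibromin and bring it to RAS at the membrane. SPRED2 (ENSG00000198369, chromosome 2, 65537985 to 65659771, minus strand) had 54.0, 56.4 and 52.9 CPM in Ab, 31.1, 33.6 and 30.3 CPM in NR and 31.9, 31.0 and 36.1 CPM in SP. It fell without overlap, 1.72-fold in NR (adjusted p = 1.33e-11 with edgeR, log2 fold change -0.78, SE 0.065) and 1.64-fold in SP (adjusted p = 2.27e-10 with edgeR, log2 fold change -0.72, SE 0.067). SPRED1 (ENSG00000166068, chromosome 15, 38545037 to 38649450, plus strand) was the gene of the 10 with the lowest counts, 106 to 255 in a library. Its levels were 9.01, 9.78 and 10.3 CPM in Ab, 6.66, 8.18 and 6.61 CPM in NR and 8.70, 10.0 and 8.32 CPM in SP. All NR libraries were below all Ab libraries, while the SP libraries ran into the Ab range. SPRED1 was 1.36-fold lower in NR (adjusted p = 0.00272 with edgeR, log2 fold change -0.45, SE 0.128), and its difference in SP did not pass the test (-0.09, 95% interval -0.34 to 0.15, adjusted p = 0.479, edgeR).

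The PEA3 subfamily of ETS factors split. ETV5 (ENSG00000244405, chromosome 3, 185764103 to 185828107, minus strand) had 105, 95.7 and 98.0 CPM in Ab, 36.0, 31.8 and 35.0 CPM in NR and 31.4, 37.1 and 36.4 CPM in SP. The nanoparticle libraries were all well below Ab, 2.89-fold in NR (adjusted p = 1.04e-18 with edgeR, log2 fold change -1.53, SE 0.061) and 2.83-fold in SP (adjusted p = 2.54e-17 with edgeR, log2 fold change -1.50, SE 0.067). ETV4 (ENSG00000175832, chromosome 17, 41605212 to 41656988, minus strand) had 40.3, 36.5 and 39.7 CPM in Ab, 38.0, 37.9 and 34.8 CPM in NR and 35.2, 36.6 and 38.5 CPM in SP. These ranges ran into each other. The log2 fold change of ETV4 was -0.07 in both (95% interval -0.21 to 0.07 in NR and in SP, adjusted p = 0.381 in NR and 0.371 in SP, edgeR), an interval that leaves out a change of the size seen in ETV5. ETV4 and ETV5 share 1.93% and 2.84% of their exon bases with neighbouring genes.

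PHLDA1, a pleckstrin homology-like domain protein induced by growth factors and known to restrain receptor tyrosine kinases (ENSG00000139289, chromosome 12, 76419227 to 76425556, minus strand), had the greatest fall of the 10. It had 229, 235 and 229 CPM in Ab, 39.5, 39.9 and 38.0 CPM in NR and 44.3, 43.1 and 38.4 CPM in SP. The Ab libraries varied little and were more than 5 times as high as any nanoparticle library. The gene was 5.89-fold lower in NR (adjusted p = 1.42e-25 with edgeR, log2 fold change -2.56, SE 0.051) and 5.47-fold lower in SP (adjusted p = 1.02e-23 with edgeR, log2 fold change -2.45, SE 0.056). An antisense gene shares 9.35% of its exon bases.

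**Figure D2:**
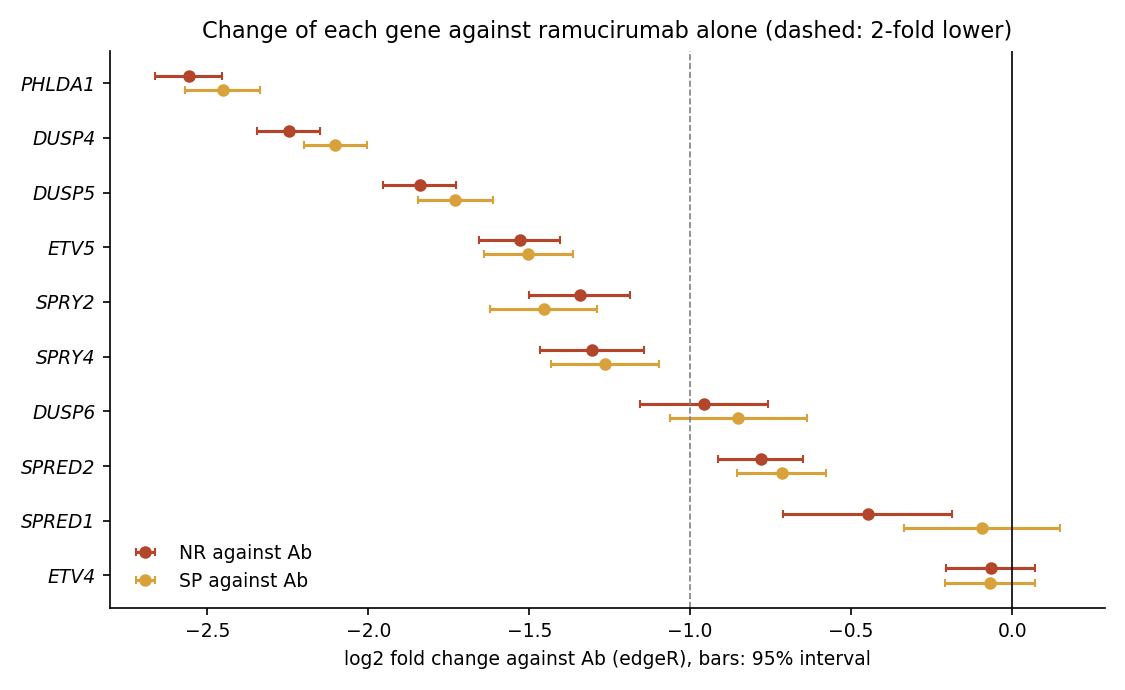
Log2 fold change against Ab (horizontal axis) of each gene in NR and SP, with points for the edgeR estimate and bars for its 95% interval; the dashed line marks 2-fold lower. PHLDA1 and DUSP4 lie farthest from 0, at -2.56 and -2.25 in NR, and the intervals of ETV4 cross 0.

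With NR libraries 2 and 3 left out together, which leaves 1 NR library that is assumed to vary like the Ab libraries, 6 of the 10 genes were still called lower. The log2 fold change was then -2.54 for PHLDA1, -2.18 for DUSP4, -1.75 for DUSP5, -0.95 for DUSP6, -1.29 for SPRY2 and -1.33 for SPRY4. It was -0.53 for SPRED1, -0.79 for SPRED2, -1.45 for ETV5 and -0.02 for ETV4. With each library left out in turn, 6 genes were called in every case for NR and for SP.

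Divided by exon length, levels can be compared between the genes. In Ab the order was DUSP5 (55.8 CPM per kilobase), DUSP4 (53.0), PHLDA1 (39.1), ETV5 (17.3), SPRY2 (12.3), ETV4 (11.04), SPRED2 (9.89), SPRY4 (5.86), DUSP6 (4.70) and SPRED1 (1.25), and no neighbours in it overlapped over the 3 libraries. In NR, DUSP5 (15.5 CPM per kilobase) and DUSP4 (11.1) still led, but ETV4 came next at 10.5, ahead of PHLDA1 at 6.62, and its libraries overlapped those of DUSP4. In SP the order was the same, with 16.7 CPM per kilobase for DUSP5, 12.3 for DUSP4, 10.5 for ETV4 and 7.09 for PHLDA1. ETV5 (5.93 in NR, 6.05 in SP) and SPRED2 (5.76 and 5.99) overlapped in both groups, as did DUSP6 (2.42 and 2.59) and SPRY4 (2.37 and 2.43). SPRED1 was lowest in all 3 groups.

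**Figure D3:**
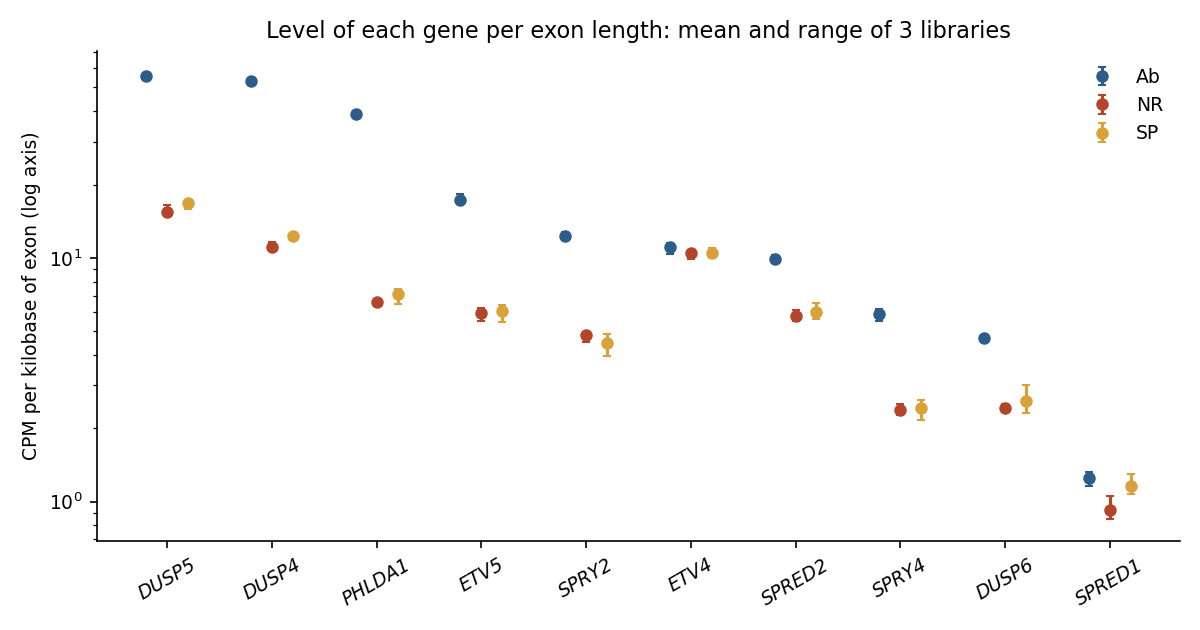
Level of each gene per kilobase of exon (vertical log axis, CPM per kilobase) in Ab, NR and SP, with points for the mean of 3 libraries and bars for their range. ETV4 is the gene whose 3 points lie together near 11, while DUSP5, DUSP4 and PHLDA1 drop from above 39 in Ab to below 17.

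The second question was whether rods and spheres differed. By the paper's account they also differed in size, supplier and surface charge, so shape cannot be told apart from these. None of the 10 genes passed the test for NR against SP with edgeR at an adjusted p of 0.05, where 0.443% of 14903 genes did. At an unadjusted p under 0.05 there were 2, DUSP4 and SPRED1, beside 12.9% of all genes tested, and these were also the 2 genes whose NR and SP libraries did not overlap, which held for 17.8% of all genes tested. DUSP4 was lower in NR by a log2 fold change of -0.14 (95% interval -0.24 to -0.04, adjusted p = 0.197, edgeR) and SPRED1 by -0.35 (95% interval -0.62 to -0.09, adjusted p = 0.218, edgeR). DESeq2, run as an alternative, also passed none, and gave an adjusted p only for DUSP4 (0.175), the others being removed by its independent filter on mean counts.

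For the other 8 genes the intervals of the difference crossed 0. They ran from -0.23 to 0.02 for DUSP5, -0.35 to 0.14 for DUSP6, -0.08 to 0.31 for SPRY2, -0.23 to 0.15 for SPRY4, -0.21 to 0.08 for SPRED2, -0.12 to 0.13 for ETV4, -0.17 to 0.12 for ETV5 and -0.23 to 0.03 for PHLDA1. A difference of 2-fold between rods and spheres lay outside the interval of every one of the 10 genes, but smaller ones were not excluded by these libraries. The median over the 10 was -0.08, beside 0.00 over all genes.

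**Figure D4:**
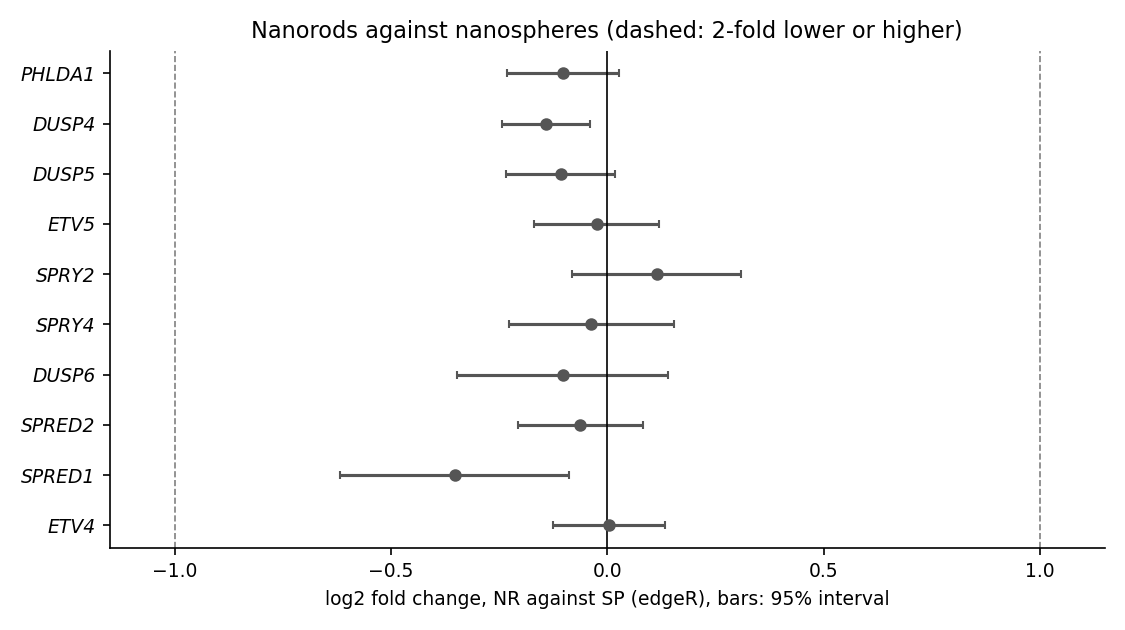
Log2 fold change of NR against SP (horizontal axis) for each gene, with points for the edgeR estimate and bars for its 95% interval; dashed lines mark 2-fold. Intervals of DUSP4 and SPRED1 alone do not cross 0, and none reaches 2-fold.

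The rest of the pathway was followed through 6 lists with 153 genes. Of 130 tested for NR against Ab, 26 rose and 76 fell, with 10 called higher and 28 called lower, beside 36.4% of all genes that rose and 36.4% that fell, and 12.4% called higher and 10.3% called lower. Without NR libraries 2 and 3, 22 of the 130 rose and 65 fell, and of the 102 that had passed 15 no longer did. For SP against Ab 31 rose and 73 fell of 129, with 9 and 26 called, beside the all-gene shares of 36.4% and 36.6%, and of 12.6% and 10.6%. The same all-gene shares are the background for the counts of each list below. Of 129 tested for NR against SP, 1 was higher in NR (JUND) and 2 were lower (ERBB2 and ID1), beside 0.443% of all genes. These 3 were named after their values were seen, and their calls were lost without NR libraries 2 and 3. Their log2 fold changes were then -0.19 for ERBB2, -0.25 for ID1 and 0.19 for JUND, beside -0.30, -0.27 and 0.18 with all libraries.

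Of 19 receptors and ligands tested, 4 rose and 9 fell in NR, and 5 rose and 8 fell in SP, with median log2 fold changes of -0.10 and -0.04. Without NR libraries 2 and 3, 3 rose and 7 fell in NR. KDR, which encodes VEGFR2, the target of ramucirumab, had 0 counts in 8 of the 9 libraries and 1 count in NR library 3, so its level was at the floor in all groups. By flow cytometry with the labeled antibody, the paper found uptake in SNU5 cells that rose with the amount added. From this it proposes that the line could express VEGFR2 highly. That reading is of antibody on cells rather than of RNA, and the difference was not tested. EGFR, a major receptor above RAS, fell from 1002 CPM in Ab to 565 in NR and 597 in SP (log2 fold change -0.82 and -0.74). MET fell slightly in NR (-0.10, adjusted p = 0.0445, edgeR), a call lost without NR libraries 2 and 3 (-0.11, adjusted p = 0.232, edgeR), and did not pass the test in SP (-0.04, adjusted p = 0.421, edgeR). The greatest changes were in PDGFRB (log2 fold change 4.65 in NR and 4.79 in SP, from 8 to 11 counts in the Ab libraries), VEGFA (-2.56 and -2.62) and FGFR4 (2.49 and 2.40). PDGFRB also stands in the fibroblast list, whose summed level was higher in NR and SP.

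Of the adaptors and RAS regulators, 5 rose and 10 fell of 19 in NR, and 4 rose and 8 fell of 18 in SP. The NR counts were 3 and 8 without NR libraries 2 and 3. ERRFI1, itself a feedback inhibitor of EGFR, fell most, from 117 ± 3.4 CPM in Ab to 38.7 ± 1.3 in NR and 39.6 ± 0.84 in SP (SD, n = 3), a log2 fold change of -1.59 and -1.56. SOS2, a RAS exchange factor, had a log2 fold change of -0.68 and -0.77, and LRIG1, a negative regulator of ERBB receptors with 37.9% of its exon bases shared with other genes, had -0.64 and -0.57.

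Of 21 genes in the core of the cascade and its scaffolds, 6 rose and 7 fell in NR, and 8 rose and 7 fell in SP, shares near those of all genes in each direction. Without NR libraries 2 and 3, 6 rose and 4 fell. The median log2 fold change was -0.05 and -0.02. MAP2K2 (MEK2) had log2 fold changes of -0.06 and -0.11 and did not pass. Falls of under 2-fold were found in MAP2K1 (-0.52 and -0.44, with 20.5% of exon bases shared) and BRAF (-0.67 and -0.45), and MAPK3 (ERK1) had 0.90 and 0.85, a rise that passed in both. Larger changes were in genes around the kinases. PEBP1, an inhibitor of the cascade, rose from 130 ± 4.3 CPM to 429 ± 7.2 in NR and 412 ± 18 in SP (SD, n = 3), 3.30-fold in NR. RRAS, a RAS relative, rose 2.43-fold in NR, and PEA15, which keeps ERK in the cytoplasm, fell 2.13-fold.

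Among ERK substrates and the regulators of ETS and CIC activity, 2 rose and 12 fell of 20 in NR, and 4 rose and 12 fell in SP, and the median log2 fold change was -0.29 in both. Leaving out NR libraries 2 and 3 gave 2 and 12 in NR. CIC fell a little (-0.23 and -0.20), and ATXN1, a partner of CIC, fell from 6.82 CPM in Ab to 2.16 in NR and 2.46 in SP (log2 fold change -1.63 and -1.46). ETS1, an ETS factor activated by ERK, had -1.04 and -1.06, and the kinase MKNK2 -0.92 and -0.92.

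Paralogs of the 10 genes did not all share their direction. Of 11 tested of 13, 3 rose and 7 fell in NR (2 and 6 without NR libraries 2 and 3), and 4 rose and 7 fell in SP. DUSP1, a nuclear phosphatase that prefers p38 and JNK, fell from 713 ± 27 CPM to 412 ± 7.9 in NR and 438 ± 3.3 in SP (SD, n = 3), and DUSP7, a cytoplasmic relative of DUSP6, fell from 124 ± 7.2 CPM to 47.7 ± 0.74 and 48.1 ± 4.5. DUSP9, the remaining cytoplasmic ERK phosphatase of that class, went the other way, from 20.1 ± 1.4 CPM in Ab to 98.0 ± 7.1 in NR and 93.7 ± 2.1 in SP (log2 fold change 2.29 and 2.23, adjusted p = 1.41e-21 and 3.54e-21, edgeR). ETV1, the third member of the PEA3 subfamily, rose from 3.95 CPM to 10.6 in NR and 9.30 in SP (log2 fold change 1.43 and 1.25). In that subfamily ETV5 therefore fell, ETV1 rose and ETV4 did not pass the test. SPRY1 was too low to be tested, with 3 to 5 counts in the NR libraries, 0 to 2 in those of SP and 0 to 1 in those of Ab.

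The list of other ERK output genes was the one with the most falls. Of 40 tested of 44, 31 fell and 6 rose in each of NR and SP, with 17 called lower and 3 called higher in NR and 16 and 3 in SP, and the median log2 fold change was -0.85 and -0.90. Among all genes tested in NR, 36.4% fell and 36.4% rose, with 10.3% called lower and 12.4% higher. In SP 36.6% fell and 36.4% rose, with 10.6% called lower and 12.6% higher. Without NR libraries 2 and 3, 28 fell and 6 rose in NR. FOSL1, an AP-1 subunit that accumulates under lasting ERK activity, fell from 390 ± 20 CPM in Ab to 39.3 ± 1.6 in NR and 44.3 ± 0.76 in SP (SD, n = 3), which is 9.86-fold in NR (log2 fold change -3.30, adjusted p = 3.23e-27, edgeR). IL11, a cytokine, had -2.58 and -2.78, GDF15, a stress-responsive TGF-β family member, -2.36 and -2.18, and the ephrin receptor EPHA2 -1.45 and -1.29. MYC fell by less than these (-0.42 and -0.52). CCND1, the gene of cyclin D1, had -0.10 in NR (adjusted p = 0.0304, edgeR) and 0.00 in SP (adjusted p = 0.985, edgeR). Without NR libraries 2 and 3 the call of CCND1 in NR was lost, at the same log2 fold change of -0.10. EPHA4 had at most 1 count in any library. EGR1, an immediate early gene that ERK induces within minutes, rose from 12.6 ± 0.91 CPM in Ab to 39.6 ± 3.4 in NR and 42.1 ± 6.6 in SP (SD, n = 3), at a log2 fold change of 1.66 and 1.75. Other genes of the immediate early response, singled out after their values were seen, were not alike. FOS rose (1.61 and 1.67), while its relative FOSB (-2.33 and -2.17), JUN (-1.80 and -1.71), JUNB (-0.84 and -0.98) and IER2 (-1.51 and -1.67) fell.

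**Figure D5:**
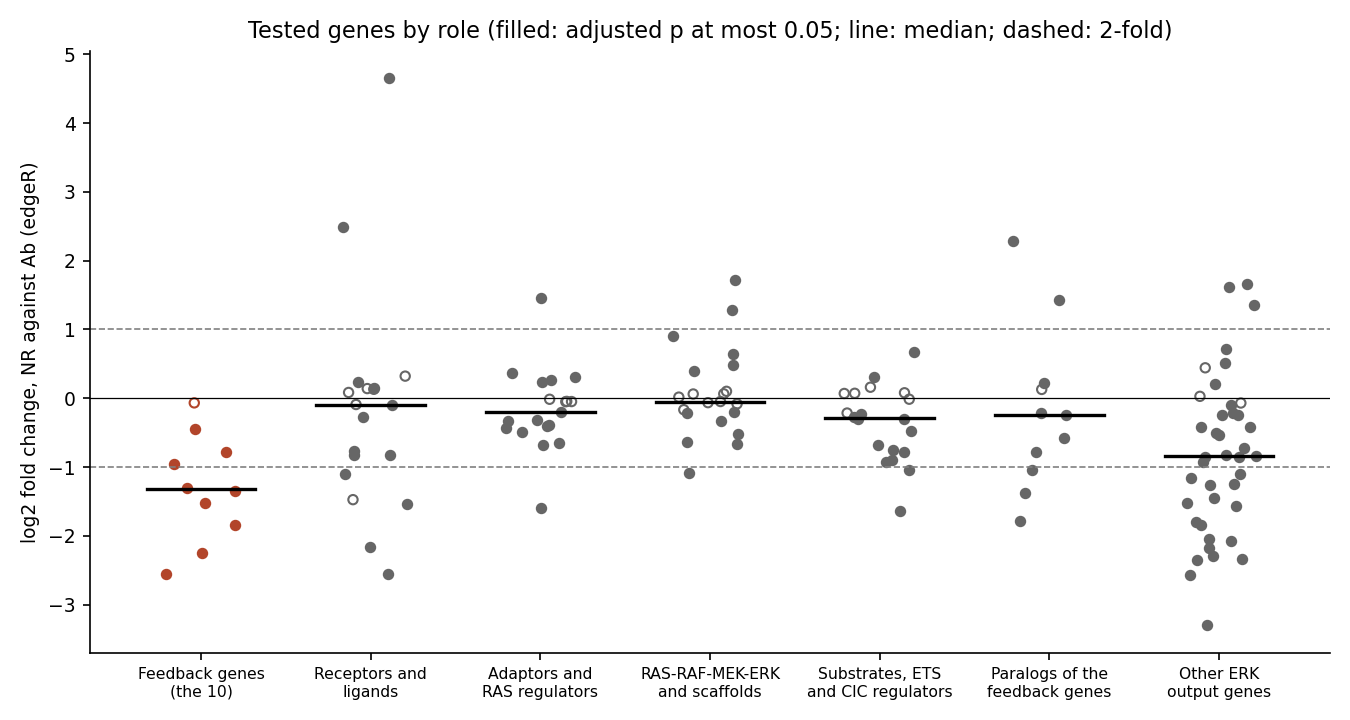
Log2 fold change of NR against Ab (vertical axis) for each tested gene of the 10 feedback genes and the 6 lists, with a filled point where the adjusted p was at most 0.05, an open point otherwise, and a line at the median. Medians are -1.32 for the feedback genes, -0.85 for other ERK output genes and -0.05 for the core of the cascade.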

How the data were processed

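Poly-A RNA of SNU5 cells (3 NR, 3 SP and 3 Ab libraries) was sequenced by the authors, aligned with HISAT2 (2.1.0) and counted per gene. The deposited values are raw counts per Ensembl gene, not scaled between libraries. The paper gives the build as hg19, while the submitters' processing notes name mm9; the gene IDs are human. The annotation release and the use of strand are not given in the sources used here. The authors' calls used DESeq2 (1.16.1).

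Of 60880 IDs, 59858 matched GENCODE release 44 on GRCh37, after removal of the version suffix of 10363 IDs, and 1022 without a match took up to 0.115% of any library. Each pair of groups was fitted on its own 6 libraries in edgeR 4.0.16 under R 4.3.3. TMM set the scaling, filterByExpr (at 10 counts and 15 in total) removed low genes, and the test was the robust quasi-likelihood test, adjusted by Benjamini-Hochberg over all genes. Steps were tested on simulated counts in which few genes changed, as many up as down. Far more genes changed against Ab here, so that test does not cover the scaling or the error control of those comparisons. Levels per kilobase used the union of a gene's exons. The chi-square per gene between libraries of a group was 1.80 to 6.81, lowest between NR 2 and NR 3. No known repeat sequencing run was at hand to compare it with. The chi-square therefore cannot tell whether libraries were repeat runs or shared a culture or an RNA sample. Alternatives were DESeq2 1.42.0, RLE size factors, other filters and fold minimums, glmTreat, all 9 libraries in one fit, a length and GC trend (span 0.3) removed, the replicate number as a block and each library left out. Leaving out NR libraries 2 and 3 was added after seeing the data.

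The 10 genes, the 6 lists and the tests were chosen with earlier results of these data known. Besides the 10 genes, 20 pathway genes were to be named whatever their values (some single genes are not reported here), and from each list the 3 genes with the largest change in NR against Ab that passed, did not overlap and averaged 100 counts or more where they were higher.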

Additional observations from a re-analysis of the deposited data

Results flagged for a closer look

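In a direct test of NR against SP with edgeR, 3 pathway genes outside the 10 feedback genes passed. ERBB2, a receptor of the EGFR family, was lower in NR than in SP (log2 fold change -0.30, SE 0.051, adjusted p = 0.00997), with 0.15 for NR and 0.45 for SP against Ab. It shares 6.93% of its exon bases with neighbouring genes. ID1, a repressor of helix-loop-helix factors, was also lower in NR (-0.27, SE 0.049, adjusted p = 0.0137), with -0.85 and -0.57 against Ab. JUND, an AP-1 subunit, was higher in NR (0.18, SE 0.042, adjusted p = 0.0470), with 0.03 and -0.15 against Ab. Without NR libraries 2 and 3 none of them passed: ERBB2 had -0.19 (adjusted p = 0.321, edgeR), ID1 -0.25 (adjusted p = 0.197, edgeR) and JUND 0.19 (adjusted p = 0.254, edgeR), with 1 NR library left.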

How the results depend on the processing

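Every gene of the 10 kept its direction and its side of the adjusted p of 0.05 in NR against Ab under the alternatives that gave a value for each gene, and in SP against Ab all did but SPRED1, given below. The test against the 2-fold threshold itself (glmTreat) was run for counts only and called 6 of the 10 in each. In NR the 6 called became 7 with the length and GC trend removed, 8 with a fold minimum of 1.5 and 9 with none, and in SP 6 became 8 with either. Among all genes, 3409 were called in NR against Ab, 2061 with glmTreat, 6348 at 1.5-fold and 10916 with no fold minimum, and in SP against Ab 2131, 6385 and 11002 in place of 3502. For NR against SP, 3 genes of all tested were called, and 0 with DESeq2 or glmTreat, 27 with no filter, 5 at 1.5-fold, 66 with no fold minimum and 0 to 28 with a library left out.

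The median of the 10 in NR against Ab was -1.33 with no filter, -1.35 with at least 10 counts in every library, -1.35 with the length and GC trend removed, -1.31 without NR libraries 2 and 3, and -1.35 to -1.31 with a library left out; in NR against SP it was -0.10 to -0.038. Directions that turned were all of values near 0, and the cause was not tested. SPRED1 in SP against Ab was 0.0016 with the length and GC trend removed. In NR against SP, ETV4 was -0.00028 with that trend removed and -0.024 to 0.043 with a library left out, ETV5 was 0.040 without NR libraries 2 and 3 and -0.093 to 0.024 with a library left out, and the ranges were -0.18 to 0.023 for DUSP6, -0.11 to 0.019 for SPRY4 and -0.10 to 0.0056 for SPRED2. With DESeq2, 1 adaptor or RAS regulator was lower in NR than in SP in place of 0, and 2 other ERK output genes in place of 1. Without NR libraries 2 and 3, 3 adaptors and RAS regulators were higher in NR than in Ab in place of 5, 4 core genes lower in place of 7, and in NR against SP 0 receptors and 0 output genes were lower and 0 output genes higher, in place of 1 each; fewer samples entered that fit. Ranked by CPM without exon length, 3 genes kept their place in NR, 3 in SP and 4 in Ab.

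The deviations of same-numbered libraries had correlations of -0.040 to 0.025, and those of differently numbered libraries -0.052 to 0.052. In SP against Ab the same-numbered pairs had 0.020 to 0.025 and the others -0.018 to -0.003. These values cannot tell whether same-numbered libraries shared a culture or a batch, and the main fits did not pair them. With the replicate number as a block, 6, 6 and 0 of the 10 genes were called in the 3 comparisons and 3414 genes of all tested in NR against Ab. SPRED1, with the lowest counts of the 10, had the largest SE, 0.128 in NR against Ab and 0.118 in SP against Ab. The part of the depth of NR libraries 2 and 3 in this was not tested.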
